A study of Mus musculus with 12 samples.

Results

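The genes followed here are 10 immediate-early genes of the mouse: Fos, Fosb, Jun, Junb, Atf3, Egr1, Nr4a1, Nr4a3, Ier2 and Ier3. They were chosen by name, as the rows of the deposited gene table that carry these symbols, and each symbol was carried by 1 of the 30239 rows. Of the 10, 8 encode DNA-binding transcription factors. Ier2 and Ier3 encode small proteins induced at the same time, Ier2 a nuclear one and Ier3 one that acts in cell survival, and neither is a classical DNA-binding factor.

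Immediate-early genes are transcribed within minutes of a stimulus and need no new protein synthesis, because the factors that switch them on, such as SRF with its ELK partners and CREB, are already present and are activated by kinases or calcium. Their mRNAs are short-lived, so a pulse of induction ends soon. FOS and JUN proteins pair to form the AP-1 factor, ATF3 is a stress-induced relative, EGR1 is a zinc-finger factor and NR4A1 and NR4A3 are orphan nuclear receptors. In skeletal muscle these genes are known for their response to contraction, stretch and injury.

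The libraries were made from polyadenylated RNA of the tibialis anterior, which lies at the front of the shin, in naïve mice 6 months of age, 4 per genotype. DMD-Null mice are named for loss of the dystrophin gene, by means that the labels leave unstated. The mdx mice carry a nonsense mutation in Dmd and are the standard model of Duchenne muscular dystrophy, and WT mice have the intact gene. The labels give neither sex nor strain background, and they number the replicates without saying that each is a separate animal, so a p-value gives only the spread among libraries, which may be technical. Since whole muscle was sequenced, fewer cells of a type and less RNA per cell cannot be told apart.

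Total counts were 60693078 to 64554184 in DMD-Null, 64120795 to 68054627 in mdx and 61145904 to 63073041 in WT libraries. The counts of the 10 genes ran from 38, for Fosb in WT 4, to 17184, for Nr4a1 in mdx 3. Every DMD-Null library had fewer Dmd reads (71 to 164) than any mdx (713 to 1254) or WT library (412 to 3597). In these unscaled counts WT 1 and WT 3, with 542 and 412, lay below every mdx library. WT 2 and WT 4 had 3597 and 2446. The libraries WT 1 and WT 3 stood apart from WT 2 and WT 4. Their TMM factors, which scale a library by the trimmed mean of its log ratios to the others, were 0.694 and 0.698, against 0.951 to 1.18 in the other 10, and their profiles leaned towards genes of high GC content (0.679 and 0.629 as Spearman's rho across genes). DMD-Null 4 shared that lean (rho 0.461). Each of the 10 genes and each list of related genes is therefore compared with WT both with and without WT 1 and WT 3. Levels are CPM, counts scaled to library size and TMM factor, unless FPKM is named.

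As genes, the 10 are short. Their median span was 4270 bp against 18391 bp for the 11376 genes tested, and 7 of 10 were under 10000 bp, as were 33.1% of tested genes. Jun, Junb and Ier2 have a single exon, and the median was 3 exons against 8. Atf3 (chromosome 1, 191170296 to 191218039) and Nr4a3 (chromosome 4, 48045153 to 48086445) are the longest, and Nr4a1 spans 20527 bp. The transcripts of the 10 genes were richer in G and C, with a median of 55.8% against 50.9%, though Nr4a3 had 48.4%. The pentamer ATTTA, the core of the AU-rich elements that mark short-lived mRNAs, occurred at least 3 times in the 3′ UTR of 6 of 10, against 34.9% of 10198 tested genes with an annotated 3′ UTR. The density was 2.89 against 1.18 copies per kb at the median. Ier3 and Nr4a3 had the most, with 5 copies each, and Ier2 had 0. Jun lies opposite an antisense gene, Junos, and since no source states a strand setting for the counting, its count may include reads of both.

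Promoters of some members are shown because the cAMP response element, to which CREB binds, is one route by which such genes are known to be switched on. Those of Fosb, Junb and Jun were also searched and are not shown. They come from RefSeq on GRCm38.p6 and run from 250 bases before to 50 bases after the RefSeq start, 5′ to 3′ on the strand of the gene. That start can differ from the end of the gene in the deposited table. Capitals mark the core of the cAMP response element, TGACG, or its reverse complement CGTCA. Nr4a3 (chr4:48045055-48045354, plus strand) and Nr4a1 (chr15:101266596-101266895, plus strand) are the nuclear receptor genes. Atf3 (chr1:191183284-191183583, minus strand), Fos (chr12:85473640-85473939, plus strand) and Ier3 (chr17:35821463-35821762, plus strand) follow, Ier3 as a window without a copy.
Nr4a3: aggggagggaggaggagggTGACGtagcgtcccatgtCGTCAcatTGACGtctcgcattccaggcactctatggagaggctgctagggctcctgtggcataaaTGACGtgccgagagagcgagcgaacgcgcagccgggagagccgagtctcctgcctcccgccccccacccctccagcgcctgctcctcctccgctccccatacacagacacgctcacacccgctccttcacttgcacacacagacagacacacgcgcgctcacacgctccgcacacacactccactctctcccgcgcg
Nr4a1: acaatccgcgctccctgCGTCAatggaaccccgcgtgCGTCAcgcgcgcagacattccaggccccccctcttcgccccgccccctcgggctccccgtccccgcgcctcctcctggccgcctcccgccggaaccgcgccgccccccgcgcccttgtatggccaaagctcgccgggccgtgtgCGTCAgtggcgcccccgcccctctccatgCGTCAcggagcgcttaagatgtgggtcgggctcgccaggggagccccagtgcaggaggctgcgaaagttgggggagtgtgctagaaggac
Atf3: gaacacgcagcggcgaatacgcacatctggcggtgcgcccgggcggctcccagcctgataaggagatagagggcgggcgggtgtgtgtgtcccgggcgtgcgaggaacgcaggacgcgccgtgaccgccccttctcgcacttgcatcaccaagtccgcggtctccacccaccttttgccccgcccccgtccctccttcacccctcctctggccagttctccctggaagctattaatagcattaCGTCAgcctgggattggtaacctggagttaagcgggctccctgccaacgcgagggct
Fos: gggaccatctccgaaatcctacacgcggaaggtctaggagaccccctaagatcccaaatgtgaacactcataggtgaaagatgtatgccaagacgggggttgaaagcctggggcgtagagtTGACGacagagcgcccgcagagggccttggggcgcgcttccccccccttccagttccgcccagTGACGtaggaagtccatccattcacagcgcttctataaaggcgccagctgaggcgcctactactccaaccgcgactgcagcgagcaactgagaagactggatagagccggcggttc
Ier3: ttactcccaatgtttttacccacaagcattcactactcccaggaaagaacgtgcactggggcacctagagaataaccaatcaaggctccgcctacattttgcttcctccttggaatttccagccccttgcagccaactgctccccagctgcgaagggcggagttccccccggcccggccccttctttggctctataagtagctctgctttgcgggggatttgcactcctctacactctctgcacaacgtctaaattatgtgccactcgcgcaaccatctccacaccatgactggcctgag

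Promoters of 8 of the 10 genes were in the RefSeq table, all but Egr1 and Ier2. The core was found on either strand in 6 of these 8, against 21.0% of 27025 promoters of the same length. It occurred 4 times in Nr4a3 and in Nr4a1, 2 times in Fos and 1 time each in Atf3, Fosb and Junb. At least 2 copies stood in 5.2% of all promoters. The full palindrome TGACGTCA (1.88% of all promoters), the AP-1 site TGANTCA (7.93%), the CArG box bound by SRF (1.57%) and the NR4A site AAAGGTCA (1.46%) were in none of the 8 windows, searched on both strands. A copy of the palindrome also counts as a core on each strand. The EGR site GCGNGGGCG was in Fosb and Nr4a1 (5.55% of all promoters). The letters TATAA on the gene's strand were in Fos, Junb and Ier3 (18.2%). These are matches of letters in a window and say nothing of binding, or of sites outside the window, which were not searched.

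In length-scaled values as the authors deposited them (FPKM), Nr4a1 was the most abundant of the 10 in each genotype, at 45.4 ± 6.01 in DMD-Null, 47.1 ± 14.3 in mdx and 37.1 ± 7.80 in WT (SD, n = 4). Jun followed at 29.4 ± 2.17 in DMD-Null, 27.5 ± 1.68 in mdx and 19.5 ± 4.25 in WT. Junb was the next, at 15.6 ± 2.54 in DMD-Null, 20.6 ± 7.73 in mdx and 10.6 ± 1.51 in WT. Libraries of Nr4a1 and Jun did not overlap in any genotype, and those of Jun and Junb overlapped in mdx alone. In the middle of the order stood Ier2, Ier3, Egr1, Atf3 and Fos, with means from 3.94 to 7.58 FPKM in DMD-Null, 5.09 to 8.56 in mdx and 2.32 to 9.90 in WT, and each overlapped its neighbour in the order. Nr4a3 was at 1.56 ± 0.555 in DMD-Null, 1.03 ± 0.593 in mdx and 0.543 ± 0.110 in WT. Fosb was the lowest, at 0.244 ± 0.0810 in DMD-Null, 0.308 ± 0.135 in mdx and 0.306 ± 0.361 in WT.

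The question of the comparisons with WT is how loss of dystrophin, in either allele, changes the muscle at 6 months. Among the genes tested, those of the 10 with an FPKM of at least 1 in at least 4 libraries, Atf3 was higher in DMD-Null than in WT and Egr1 and Ier2 were lower. Nr4a3 also passed as higher in DMD-Null, but it entered the test through mutant libraries alone and its call is no support. Atf3 and Ier3 were higher in mdx than in WT, and none was lower. Atf3 stood at 1.59 times the WT level in both mutants and Ier3 in mdx at 1.32 times, and Egr1 and Ier2 in DMD-Null at 0.505 and 0.497 times it. No member passed the test between DMD-Null and mdx.

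Of the 10 genes 9 were tested. Fosb was below the filter in every library, and Nr4a3 entered through 3 DMD-Null and 2 mdx libraries and no WT library, so its being tested already depended on the mutants. In DMD-Null against WT, 4 of the 9 passed edgeR's quasi-likelihood test at an adjusted p under 0.05, 2 higher and 2 lower, where 28.5% of all tested genes passed (12.9% higher and 15.6% lower). The median log2 fold change of the 9 was 0.13, and that of all tested genes 0.01. In mdx against WT, 2 of the 9 passed, both higher, where 35.2% of all tested genes passed (15.0% higher and 20.1% lower). The median of the 9 was 0.40, against 0.00 for all. With so few genes these shares are not read as a result about the 10. Both comparisons use the same WT libraries. With no filter on low values, none of the 4 passed in DMD-Null (edgeR adjusted p = 0.0523 for Atf3, 0.0578 for Ier2, 0.0623 for Nr4a3 and 0.0806 for Egr1), and in mdx Atf3 passed (0.0465) and Ier3 did not (0.0836).

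Without WT 1 and WT 3, 1 of 9 passed in DMD-Null against WT, where Egr1 was lower, and 0 of 9 in mdx against WT. In that fit 2486 and 2649 of all tested genes passed, against 3241 and 4001 with all libraries. The 9 had a median of 0.08 in DMD-Null and 0.23 in mdx against the 2 remaining WT libraries.

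**Figure D1:**
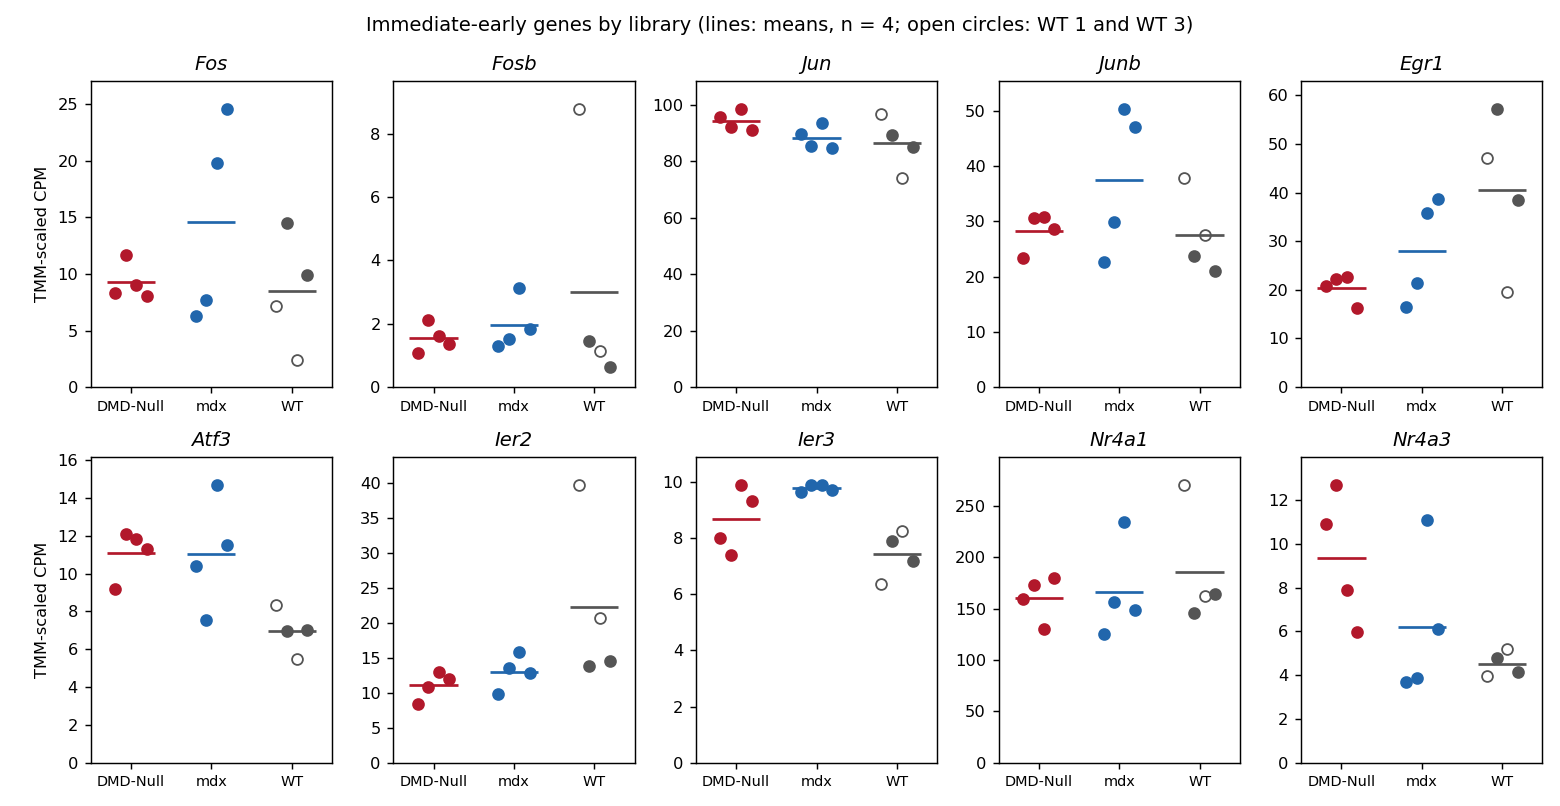
TMM-scaled CPM of each gene (vertical axes from 0) in the 4 DMD-Null, 4 mdx and 4 WT libraries, with lines at group means and open circles for WT 1 and WT 3. Atf3, Nr4a3 and Ier2 do not overlap between DMD-Null and WT, and WT 1 lies far above the other WT libraries for Fosb, Ier2 and Nr4a1.

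Fos (ENSMUSG00000021250, chromosome 12 from 85473890 to 85477273), the partner of JUN in AP-1, had 8.33, 11.7, 9.05 and 8.09 CPM in DMD-Null 1 to 4, 6.30, 7.66, 19.8 and 24.6 in mdx 1 to 4, against 7.16, 14.5, 2.44 and 9.93 in WT 1 to 4. The DMD-Null libraries were close together, while mdx split into a low and a high pair and WT covered a 5.94-fold range, so all 3 groups overlapped. The log2 fold change was 0.13 in DMD-Null against WT (SE 0.51, edgeR adjusted p = 0.852) and 0.77 in mdx against WT (SE 0.51, edgeR adjusted p = 0.232). Without WT 1 and WT 3, WT 3 being the lowest of the 12, the estimate was -0.42 in DMD-Null and 0.23 in mdx, neither called.

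Fosb (ENSMUSG00000003545, chromosome 7), a second FOS protein, was read in 73 to 150 counts in DMD-Null, 96 to 228 in mdx and 38 to 381 in WT. Its levels were 1.09, 2.12, 1.61 and 1.36 CPM in DMD-Null 1 to 4, 1.31, 1.51, 3.12 and 1.84 in mdx 1 to 4, against 8.78, 1.46, 1.14 and 0.643 in WT 1 to 4. A single library, WT 1, held the highest level, and the other 11 lay between 0.643 and 3.12. In the fit without a filter the log2 fold change was -0.89 in DMD-Null (SE 0.65, edgeR adjusted p = 0.375) and -0.56 in mdx (SE 0.64, edgeR adjusted p = 0.588), and without WT 1 and WT 3 it turned to 0.54 and 0.87, again not called.

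Jun (ENSMUSG00000052684, chromosome 4 from 95049034 to 95052222), the central AP-1 subunit, varied little over the 12 libraries. It had 95.7, 92.2, 98.5 and 91.0 CPM in DMD-Null 1 to 4, 89.7, 85.3, 93.6 and 84.8 in mdx 1 to 4, against 96.8, 89.4, 73.9 and 85.1 in WT 1 to 4. The groups overlapped, with WT 3 the lowest. The log2 fold change was 0.13 in DMD-Null against WT (95% interval -0.11 to 0.37, edgeR adjusted p = 0.364) and 0.03 in mdx against WT (95% interval -0.21 to 0.27, edgeR adjusted p = 0.81). Without WT 1 and WT 3 it was 0.082 in DMD-Null and -0.01 in mdx, neither called.

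Junb (ENSMUSG00000052837, chromosome 8), which can restrain JUN in AP-1 and is known in muscle for upholding fibre size, had 23.3, 30.6, 30.8 and 28.7 CPM in DMD-Null 1 to 4, 22.7, 29.9, 50.4 and 47.1 in mdx 1 to 4, against 37.9, 23.7, 27.5 and 21.0 in WT 1 to 4. As with Fos, mdx 3 and mdx 4 stood above every other library, while the remaining mdx libraries lay within the range of WT. The log2 fold change was 0.04 in DMD-Null (SE 0.26, edgeR adjusted p = 0.902) and 0.45 in mdx (SE 0.26, edgeR adjusted p = 0.177). With offsets that correct each library for gene GC content, the mdx estimate was 0.96 and passed (edgeR adjusted p = 0.0117), whereas without WT 1 and WT 3 it was 0.72 and did not (edgeR adjusted p = 0.0918).

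Atf3 (ENSMUSG00000026628), which encodes a stress-induced member of the ATF family, was the gene that rose in both mutants. It had 9.17, 12.1, 11.8 and 11.3 CPM in DMD-Null 1 to 4, 10.4, 7.53, 14.7 and 11.5 in mdx 1 to 4, against 8.34, 6.94, 5.49 and 7.04 in WT 1 to 4. Every DMD-Null library exceeded every WT library, and among mdx libraries mdx 2 alone fell within the WT range. The log2 fold change was 0.67 in DMD-Null against WT (SE 0.21, edgeR adjusted p = 0.0316), or 1.59-fold, and 0.67 in mdx against WT (SE 0.21, edgeR adjusted p = 0.0282). Across 24 alternative fits it was positive in all 24 in each comparison and passed in 15 in DMD-Null and 16 in mdx, with adjusted p from 0.00355 to 0.0975 and from 0.00395 to 0.0889. It passed with GC-corrected offsets, at 0.71 in both (edgeR adjusted p = 0.0148 and 0.0135), and did not without WT 1 and WT 3, at 0.63 in both (edgeR adjusted p = 0.0762 and 0.0737). Leaving out 1 library at a time, the call in DMD-Null ended without DMD-Null 2, DMD-Null 3, DMD-Null 4 or WT 3, where the log2 fold change was 0.55 to 0.64. The call in mdx ended without mdx 1, mdx 3, mdx 4 or WT 3, where it was 0.50 to 0.69.

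Egr1 (ENSMUSG00000038418, chromosome 18 from 34859823 to 34864984), a zinc-finger factor induced by SRF, had 20.8, 22.2, 22.6 and 16.3 CPM in DMD-Null 1 to 4, 16.4, 21.5, 35.8 and 38.6 in mdx 1 to 4, against 47.0, 57.2, 19.5 and 38.5 in WT 1 to 4. WT 1, WT 2 and WT 4 lay above all DMD-Null libraries, and WT 3 lay among them. Egr1 was lower in DMD-Null than in WT, at -0.99 on the log2 scale (SE 0.33, adjusted p = 0.0428 in edgeR), although the exact two-sided permutation test over libraries gave p = 0.114. In mdx the estimate was -0.53 (SE 0.33, edgeR adjusted p = 0.205). Unlike the other called genes, Egr1 kept its call in DMD-Null without WT 1 and WT 3 (-1.25, edgeR adjusted p = 0.012). It lost it with GC-corrected offsets, at -0.81 (adjusted p = 0.137), and it passed in 7 of 25 alternative fits, with adjusted p from 0.0109 to 0.401. Of the 12 fits that left out 1 library, 3 kept the call, those without mdx 1, mdx 4 or WT 3 (-0.99, -0.99 and -1.24), and in the other 9 the estimate was -0.77 to -1.04.

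Nr4a1 (ENSMUSG00000023034, chromosome 15 from 101254269 to 101274795), a nuclear receptor known in muscle for metabolic genes, had 160, 173, 130 and 180 CPM in DMD-Null 1 to 4, 125, 157, 235 and 149 in mdx 1 to 4, against 271, 146, 162 and 164 in WT 1 to 4. The groups overlapped, with mdx 3 and WT 1 far above the rest of their genotypes. The log2 fold change was -0.21 in DMD-Null (95% interval -0.72 to 0.30, edgeR adjusted p = 0.487) and -0.16 in mdx (95% interval -0.67 to 0.35, edgeR adjusted p = 0.589), and both were positive without WT 1 and WT 3 (0.019 and 0.073).

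Nr4a3 (ENSMUSG00000028341), the third receptor of this family, had 10.9, 12.7, 7.87 and 5.98 CPM in DMD-Null 1 to 4, 3.67, 3.89, 11.1 and 6.10 in mdx 1 to 4, against 3.96, 4.78, 5.21 and 4.16 in WT 1 to 4. All 4 DMD-Null libraries exceeded all WT libraries, while mdx ran from below WT to the level of DMD-Null. The estimate in DMD-Null against WT was 1.05 on the log2 scale (SE 0.35, edgeR adjusted p = 0.0418), or 2.06-fold, under the filter that no WT library met. In the fit without that filter it was 1.08 and did not pass (edgeR adjusted p = 0.0623). The mdx estimate was 0.45 (SE 0.34, edgeR adjusted p = 0.299). The DMD-Null estimate was positive in all 24 alternative fits and passed in 11, with adjusted p from 0.0104 to 0.128. GC-corrected offsets gave 0.84 (edgeR adjusted p = 0.0648), and it was 1.03 without WT 1 and WT 3 (edgeR adjusted p = 0.128). Of the 12 fits that left out 1 library, 5 kept the call, and those without DMD-Null 1, 2 or 3, mdx 4, WT 1, WT 3 or WT 4 did not (0.86 to 1.12).

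Ier2 (ENSMUSG00000053560, chromosome 8 from 84661331 to 84662854) had 8.39, 10.9, 13 and 12 CPM in DMD-Null 1 to 4, 9.80, 13.5, 15.9 and 12.9 in mdx 1 to 4, against 39.8, 13.9, 20.7 and 14.6 in WT 1 to 4. All DMD-Null libraries lay below all WT libraries, though DMD-Null 3 came close to WT 2, and WT 1 stood far above every other library. It was lower in DMD-Null than in WT with -1.01 on the log2 scale (SE 0.31, adjusted p = 0.0321 in edgeR), and in mdx the estimate was -0.77 (SE 0.31, edgeR adjusted p = 0.0687). The size depended on WT 1 and WT 3. Without them it was -0.40 in DMD-Null (edgeR adjusted p = 0.208) and -0.16 in mdx (edgeR adjusted p = 0.632), and without WT 1 alone -0.59 and -0.35. In mdx it was called lower by DESeq2 (-0.81, adjusted p = 0.0329) and by edgeR without WT 2 (-0.94, adjusted p = 0.0185) or without WT 4 (-0.93, adjusted p = 0.0376). GC-corrected offsets gave -0.49 in DMD-Null (edgeR adjusted p = 0.0633) and -0.20 in mdx (edgeR adjusted p = 0.409). In DMD-Null the call held in 9 of 25 alternative fits, with adjusted p from 0.00643 to 0.208, and leaving out DMD-Null 1, 2 or 3, WT 1 or WT 3 ended it (-0.59 to -1.09).

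Ier3 (ENSMUSG00000003541, chromosome 17 from 35821684 to 35822923) had 8.01, 7.41, 9.90 and 9.32 CPM in DMD-Null 1 to 4, 9.64, 9.90, 9.90 and 9.69 in mdx 1 to 4, against 6.36, 7.88, 8.26 and 7.18 in WT 1 to 4. The mdx libraries were almost identical and all above WT, and DMD-Null overlapped both. It was higher in mdx than in WT by 0.40 on the log2 scale (SE 0.14, adjusted p = 0.0457 in edgeR), or 1.32-fold. In DMD-Null the estimate was 0.22 (SE 0.14, edgeR adjusted p = 0.227). The mdx call lay close to the threshold and held in 8 of 25 alternative fits, with adjusted p from 0.00143 to 0.124. GC-corrected offsets left it in place (0.55, edgeR adjusted p = 0.0173) and dropping WT 1 and WT 3 ended it (0.35, edgeR adjusted p = 0.112). Of the fits that left out 1 library, the one without WT 2 alone kept it (0.43), and in the other 11 the estimate was 0.31 to 0.43.

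**Figure D2:**
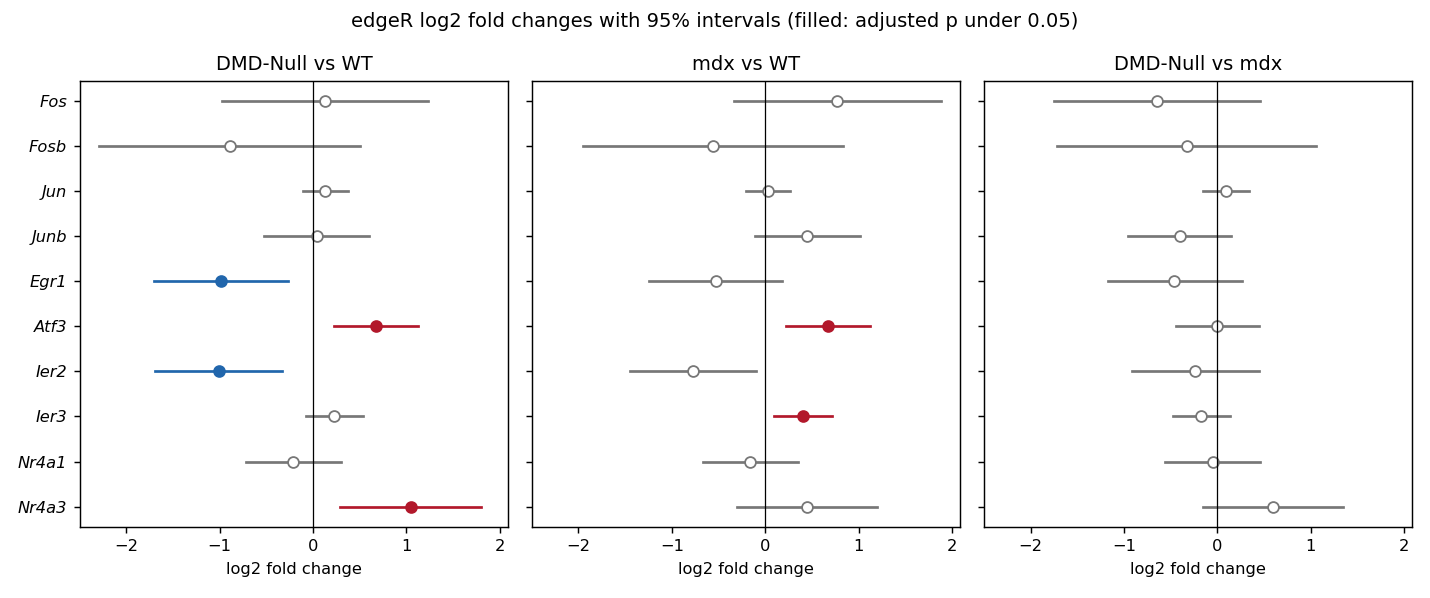
Log2 fold changes (horizontal axes) of the 10 genes with 95% intervals from edgeR, for DMD-Null against WT, mdx against WT and DMD-Null against mdx, filled where the adjusted p was under 0.05 (red higher, blue lower). Atf3 stands at 0.67 in both comparisons with WT, and in DMD-Null against mdx every interval includes 0.

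Groups without any overlap on the TMM scale were found for 3 of the 9 tested genes in DMD-Null against WT (Atf3, Nr4a3 and Ier2) and for 1 of 9 in mdx against WT (Ier3). Among all tested genes the shares were 21.8% and 30.7%. Nr4a3 was tested through mutant libraries alone, so its place in this count is no support. Without overlap, 4 against 4 libraries give the smallest p that the exact two-sided permutation test allows, 0.0286, over 70 arrangements. With 30 such tests over the 10 genes and 3 comparisons, this p carries little weight by itself. Egr1 in DMD-Null and Atf3 in mdx (exact p = 0.0571) passed edgeR with overlapping groups.

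DMD-Null against mdx tests whether the libraries of the mutant genotypes differ. Since strain background and sex are unstated, an effect of the allele cannot be told apart from theirs. None of the 9 genes passed edgeR's test, where 2 of all 11376 tested genes (0.0176%) did, and none had an unadjusted p under 0.05, as 120 genes (1.05%) had. DESeq2 also called none of the 9. The widest interval of the 9 was that of Fos, at -0.65 on the log2 scale (95% interval -1.75 to 0.46). Nr4a3 had 0.60 (95% interval -0.15 to 1.34), Egr1 -0.46 (95% interval -1.17 to 0.26) and Junb -0.40 (95% interval -0.96 to 0.15). The intervals of Jun (-0.15 to 0.34) and Atf3 (-0.44 to 0.45) were the narrowest with Ier3 (-0.48 to 0.13), and a p that misses the threshold does not show that the alleles act alike. All 10 genes overlapped between DMD-Null and mdx, where 2.24% of all tested genes did not.

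The libraries of 1 genotype differed among themselves more in mdx than the bulk of genes did. The median SD of log2 CPM over the 9 genes was 0.40 in mdx, where that of all tested genes was 0.14. It was 0.21 against 0.22 in DMD-Null and 0.37 against 0.48 in WT. In mdx the spread was largest in Fos (SD 0.97), Nr4a3 (0.73), Egr1 (0.59) and Junb (0.55), and smallest in Ier3 (0.02) and Jun (0.07). Of the 10 genes 7 were highest in mdx 3 and 2 in mdx 4, and 8 were lowest in mdx 1. In WT, 6 of the 10 were highest in WT 1, and in DMD-Null 5 were highest in DMD-Null 3 and 4 in DMD-Null 2. What distinguishes these libraries was not tested, and the labels name no batch, hour of dissection or litter.

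**Figure D3:**
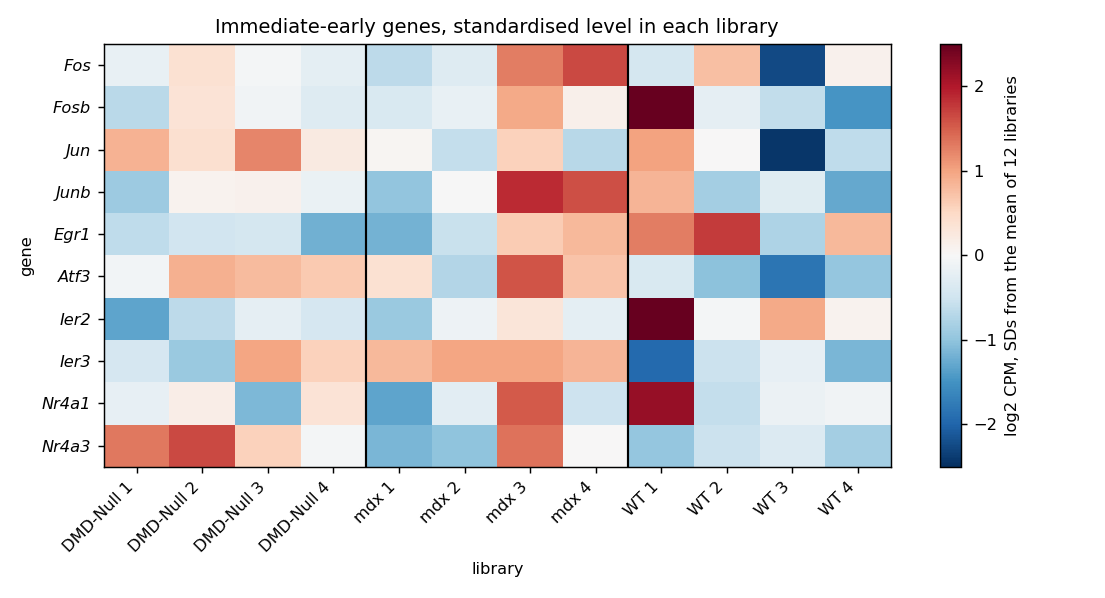
Log2 CPM of the 10 genes (rows) in the 12 libraries (columns, DMD-Null, mdx and WT from left to right), each as the number of SDs from the mean of the gene over all libraries. In mdx, Fos, Junb and Egr1 are above their means in mdx 3 and mdx 4 and lower in mdx 1, while WT 1 is high for Fosb, Ier2 and Nr4a1 and low for Ier3.

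By mean absolute rank difference over the 12 libraries from the mean standardised level of the 9 tested genes, the closest other genes were Gm13889 (1.0), Gtf2h3 (1.33) and, at 1.67 each, Tnfaip8l2, Srebf2 and Galk2. Among the members themselves that difference ran from 1.17 for Junb to 3.83 for Ier2. With each genotype's mean removed, the closest were Klhl38 (1.0), Ttpal, Pvr and Zfp36 (1.17 each) and Litaf (1.33). Zfp36 encodes a protein that destabilises AU-rich mRNAs, and Litaf one of endosomes. These are orders of likeness among 11376 genes and carry no test.

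How the libraries are scaled changed which members passed. With library totals alone, the median of all tested genes moved to 0.44 in DMD-Null and 0.42 in mdx against WT, and every member moved up with it. Jun was then 0.56 higher in DMD-Null (edgeR adjusted p = 0.0155) and 0.46 higher in mdx (edgeR adjusted p = 0.0351). Relative to the median of all genes these are 0.12 and 0.03. Its groups did not overlap in either comparison, but the share of all genes without overlap on that scale was not counted. Under that scaling Atf3, Ier3 and Nr4a3 also passed in DMD-Null, and Atf3, Ier3 and Junb in mdx, all higher, and no member passed as lower. Of all tested genes 3360 were then higher and 574 lower in DMD-Null, and 3350 and 707 in mdx. Nr4a3 was again tested through mutant libraries alone, so its call is no support. With GC-corrected offsets, the call that remained in DMD-Null was Atf3, and Atf3, Ier3 and Junb passed in mdx. Of all 11376 tested genes, 4433 passed in that fit in DMD-Null (1882 higher) and 4988 in mdx (1990 higher). Atf3 was the one member that passed under TMM, GC-corrected offsets and library totals in both comparisons.

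**Figure D4:**
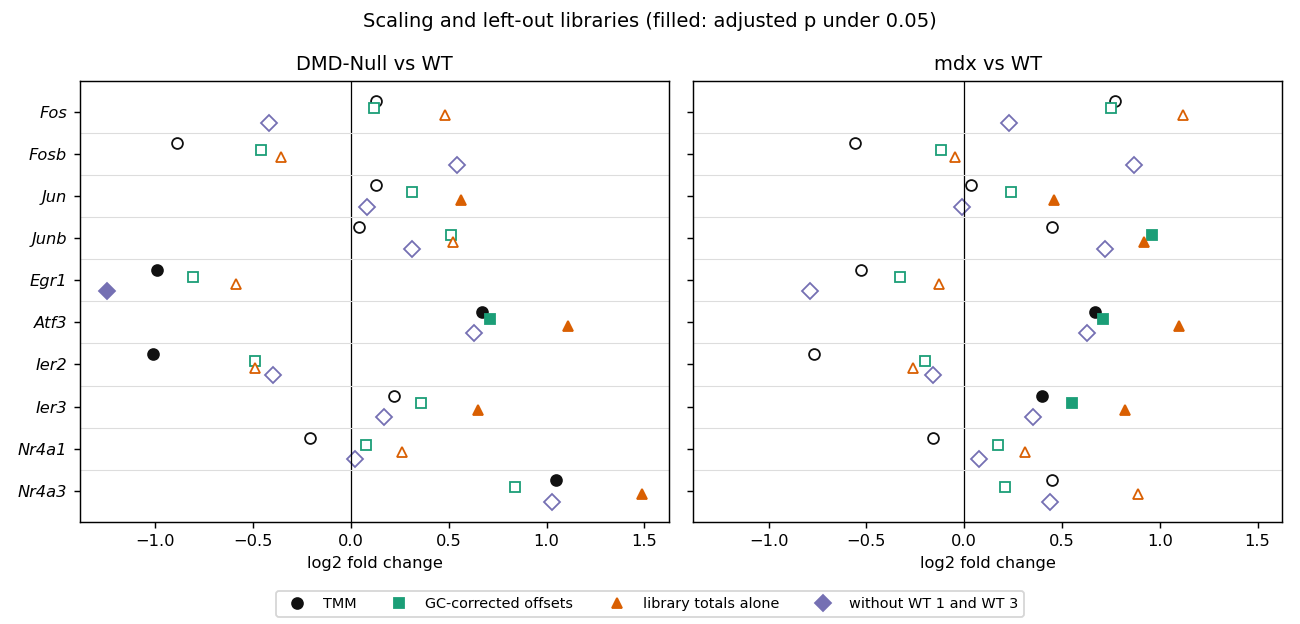
Log2 fold changes (horizontal axes) of the 10 genes in DMD-Null against WT and mdx against WT, under TMM (circles), GC-corrected offsets (squares), library totals alone (triangles) and TMM without WT 1 and WT 3 (diamonds), filled where the edgeR adjusted p was under 0.05. Atf3 lies between 0.63 and 1.11 under all 4, and Fosb, Ier2 and Fos shift most when WT 1 and WT 3 are left out.

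The relatives of these genes were examined next. Which libraries brought each gene of these lists past the filter was not examined. Genes with low WT levels may, like Nr4a3, have been tested through mutant libraries alone. Of 5 other tested AP-1 genes, 2 were higher in DMD-Null than in WT (Fosl2 and Jdp2) and 1 in mdx (Fosl2), and 0 were lower. Fosl2, which encodes the FOS relative FRA-2, averaged 20.2 ± 2.23 CPM in DMD-Null, 22.4 ± 3.43 in mdx and 11.9 ± 2.17 in WT (SD, n = 4). Its log2 fold change was 0.76 in DMD-Null (SE 0.17, edgeR adjusted p = 0.00796) and 0.91 in mdx (SE 0.17, edgeR adjusted p = 0.00265), and it passed in all 24 alternative fits in each comparison. Jdp2, a repressor of AP-1, was 0.62 higher in DMD-Null (edgeR adjusted p = 0.0165) and had 0.42 in mdx (edgeR adjusted p = 0.0582). Without WT 1 and WT 3, 3 of these 5 were higher in DMD-Null and 2 in mdx, and Jdp2 had 0.69 and 0.50 (edgeR adjusted p = 0.0202 and 0.0711). Of the other EGR, NR4A and IER genes 2 of 6 were tested and 0 passed with all libraries. Ier5 had 0.08 in DMD-Null and 0.25 in mdx (edgeR adjusted p = 0.778 and 0.369). The related Ier5l had -0.17 and -0.23 (edgeR adjusted p = 0.774 and 0.681), but it was 1.06 and 1.0 higher and passed without WT 1 and WT 3 (adjusted p = 0.0241 and 0.0296 in edgeR).

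Of 32 other immediate-early genes tested, 10 were higher and 3 lower in DMD-Null than in WT, with a median log2 fold change of 0.30, and 10 were higher and 3 lower in mdx, with a median of 0.26. Rrad, a small GTPase that restrains calcium channels, rose most, at 3.40 in DMD-Null (SE 0.47, edgeR adjusted p = 0.000446) and 3.91 in mdx (SE 0.48, edgeR adjusted p = 0.000188). Myc, a growth factor-induced transcription factor, was 1.25 higher in DMD-Null and 1.2 higher in mdx (edgeR adjusted p = 0.00617 and 0.00678). The anti-proliferative Btg1 was 1.01 and 1.37 higher, and its call in DMD-Null was lost on leaving out WT 1 and WT 3 (0.59, edgeR adjusted p = 0.0854). The 3 lower genes were Klf2, a factor induced by flow in endothelium (-1.33 in DMD-Null and -1.19 in mdx), the growth arrest gene Gadd45g (-1.16 and -1.23) and Ppp1r15a, a regulator of the stress response (-0.96 and -0.92). Klf2 also passed without WT 1 and WT 3 (-0.97 in DMD-Null and -0.83 in mdx). Of the whole list, 6 were then higher and 4 lower in DMD-Null, and 7 higher and 2 lower in mdx.

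Among the feedback inhibitors that shut this response down, 6 of 14 were higher in DMD-Null than in WT and 0 lower, and 7 of 14 were higher in mdx and 0 lower. Their median log2 fold changes were 0.90 and 0.97, against 0.01 and 0.00 for all tested genes. Dusp5, a nuclear phosphatase of ERK, averaged 4.90 ± 0.819 CPM in DMD-Null, 4.24 ± 1.11 in mdx and 1.17 ± 0.393 in WT (SD, n = 4), which was 2.06 higher in DMD-Null and 1.85 higher in mdx on the log2 scale (edgeR adjusted p = 0.000481 and 0.000804). Nab2, a corepressor that binds EGR1, averaged 18.5 ± 2.08 CPM in DMD-Null, 18.4 ± 2.34 in mdx and 9.41 ± 2.81 in WT (SD, n = 4), and was 0.98 and 0.97 higher (edgeR adjusted p = 0.00477 and 0.00451). Both passed in all 24 alternative fits in each comparison. At 1.17 CPM in WT, Dusp5 may have been tested through mutant libraries alone, and if so its call is no support. Dusp6, the cytoplasmic ERK phosphatase, was 1.19 and 1.47 higher, and neither passed without WT 1 and WT 3, at 0.63 and 0.91 (adjusted p = 0.203 and 0.0687 in edgeR). Its call held in 11 of 25 alternative fits in DMD-Null and 23 of 25 in mdx. Without those libraries 2 of 14 inhibitors passed in DMD-Null and 3 of 14 in mdx, with medians of 0.37 and 0.47.

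Upstream of the 10 genes, 1 of 32 factors and kinases was higher and 5 were lower in DMD-Null than in WT, and 2 were higher and 6 lower in mdx, with medians of 0.13 and 0.18. With library totals alone the balance turned, to 5 higher and 0 lower in DMD-Null and 6 higher and 0 lower in mdx. That of all tested genes turned too, to 3360 higher and 574 lower in DMD-Null, and 3350 and 707 in mdx. Without WT 1 and WT 3 the balance of the list was 1 and 2, and 1 and 3. Elk1, an SRF partner, was 0.65 higher in both, and its calls ended without WT 1 and WT 3 (0.25 in DMD-Null and 0.26 in mdx). Srf itself averaged 91.8 ± 14.0 CPM in DMD-Null, 87.1 ± 2.90 in mdx and 143 ± 25.0 in WT (SD, n = 4), and was lower by a log2 fold change of -0.64 and -0.72 (edgeR adjusted p = 0.00978 and 0.00507). Srf also passed without WT 1 and WT 3 (-0.48 and -0.55) and did not with GC-corrected offsets (-0.20 and -0.22) or library totals alone (-0.19 and -0.26). The SRF coactivator Mrtfa was at -0.94 and -1.13 (edgeR adjusted p = 0.036 and 0.0157), passed in 8 of 25 alternative fits in DMD-Null and 21 of 25 in mdx, and did not pass without WT 1 and WT 3 (-0.40 and -0.59). The p38 kinase gene Mapk14 was at -0.52 and -0.55, which passed with GC-corrected offsets (-0.47 and -0.50) and without WT 1 and WT 3 (-0.62 and -0.65) and not with library totals alone (-0.10 and -0.14). Map2k2, a kinase above ERK, fell most, at -1.27 and -1.25, of which -0.28 and -0.26 remained without WT 1 and WT 3, neither called. Map2k1, also a kinase above ERK, went the other way in DMD-Null, at 0.75, uncalled (SE 0.3, edgeR adjusted p = 0.0811). It averaged 79.0 ± 9.99 CPM in DMD-Null, 78.9 ± 6.49 in mdx and 47.0 ± 25.1 in WT (SD, n = 4).

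Of 13 tested genes known as AP-1 or EGR1 targets, 10 were higher in DMD-Null than in WT and 10 in mdx, and 0 were lower in either. Their median log2 fold changes were 1.71 and 1.68. Timp1, a metalloproteinase inhibitor, averaged 26.7 ± 7.37 CPM in DMD-Null, 19.0 ± 9.44 in mdx and 0.883 ± 0.145 in WT (SD, n = 4), and was 4.92 and 4.43 higher on the log2 scale (edgeR adjusted p = 1.49e-05 and 2.82e-05). At 0.883 CPM in WT, Timp1 may also have been tested through mutant libraries alone. The adhesion receptor Cd44 was 2.56 higher in both. Without WT 1 and WT 3, 10 were higher and 1 lower in DMD-Null, and 12 were higher and 1 lower in mdx. Many of these genes are also expressed by macrophages and fibroblasts, and markers of such cells also differed between the mutants and WT, as given below. The part of such cells in the levels of these targets was not tested. Of 12 heat shock genes, 3 were lower in DMD-Null than in WT and 7 in mdx, and 0 were higher, with medians of -0.42 and -0.60. With library totals alone 1 was lower in each, with medians of -0.01 and -0.14, and without WT 1 and WT 3 there were 5 and 6. Hsf1, the heat shock factor, was lower in both (-1.03 and -1.14, edgeR adjusted p = 0.0101 and 0.00536). No gene of any of these lists passed between DMD-Null and mdx. The most abundant tested gene of each had a log2 fold change of -0.11 (Jund), -0.17 (Ier5), -0.27 (Sgk1), -0.01 (Dusp1), 0.01 (Mef2c), 0.15 (Fn1) and 0.20 (Hspa8), each with an edgeR adjusted p of 1.

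**Figure D5:**
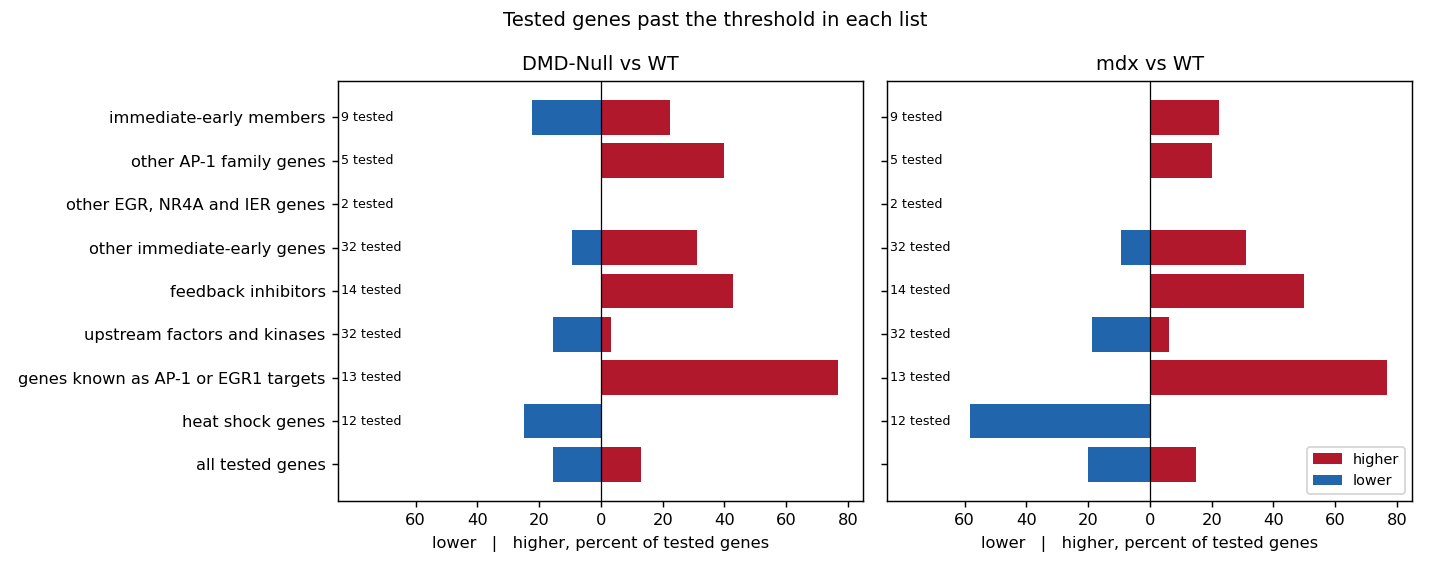
Percent of the tested genes of each list (horizontal axis, with the number tested) that were higher (right, red) or lower (left, blue) at an edgeR adjusted p under 0.05, in DMD-Null against WT and mdx against WT, with all tested genes in the bottom row. The known AP-1 or EGR1 targets (10 of 13 higher in each) reach furthest to the right, and of the 9 tested immediate-early members 2 are higher and 2 lower in DMD-Null, and 2 higher and 0 lower in mdx.

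Markers of other cells in the muscle moved between the same groups. The summed level of 9 macrophage markers was 440 to 875 CPM in DMD-Null, 727 to 927 in mdx and 104 to 207 in WT, with 8 of 9 markers higher in DMD-Null and 9 of 9 in mdx. Without WT 1 and WT 3 all 9 were higher in both. That of 6 markers of fibro-adipogenic progenitors was 482 to 847 CPM in DMD-Null, 722 to 855 in mdx and 184 to 543 in WT. Of the 5 tested, 3 were called higher and 0 lower in DMD-Null, and 4 higher and 1 lower in mdx. Without WT 1 and WT 3, 3 were higher and 0 lower in each. The 6 endothelial markers summed to 284 to 337 CPM in DMD-Null, 280 to 338 in mdx and 334 to 433 in WT. Of these, 2 were called lower in each mutant, and 1 in DMD-Null and 0 in mdx without WT 1 and WT 3. The 5 smooth muscle and pericyte markers summed to 503 to 604 CPM in DMD-Null and 533 to 603 in mdx, against 651 to 788 in WT, and the 5 Schwann cell markers to 103 to 142 in DMD-Null and 105 to 123 in mdx, against 151 to 259 in WT. Of the smooth muscle and pericyte markers 3 were called lower in DMD-Null and 2 in mdx, and 2 in each without WT 1 and WT 3. Of the Schwann cell markers 3 and 4 were called lower, and 0 and 1 without those libraries. The 7 myofibre markers reached 85500 to 128000 in DMD-Null, 85700 to 111000 in mdx and 95200 to 312000 in WT. Of the 7, 4 were called lower in each mutant, with median log2 fold changes of -1.21 in DMD-Null and -1.1 in mdx. Without WT 1 and WT 3, 0 were called in either, with medians of -0.33 and -0.27. All 6 liver genes were lower in both mutants, at 46.8 to 196 CPM in sum in DMD-Null and 83.3 to 154 in mdx, against 595 to 913 in WT. Without WT 1 and WT 3, 2 of the 6 were called lower in DMD-Null and 3 in mdx. The 5 lung genes summed to 0 to 0.109 CPM in DMD-Null, with 4 of the 5 at 0 in every library, 11.6 to 13.9 in mdx and 0.0696 to 0.508 in WT, and the 2 genes called between DMD-Null and mdx are among them. The part of these cells and tissues in the levels of the 10 genes was not tested.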

How the data were processed

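Per the labels' protocols, quality-checked RNA was made into poly(A)-selected, strand-specific TruSeq libraries. The tools named in the submitters' processing notes are HISAT2 2.0, StringTie 1.3.4, cutadapt 1.10 and FastQC 0.10.1. The authors deposited whole-number read counts per gene, not normalized, and beside them FPKM values, scaled by the authors to gene length and library size. The counting step and its strand setting are unstated in these sources. GRCm39 is the build in those notes, yet 99.7% of the 30155 genes found in the GRCm38 annotation begin or end where it places them, and positions are therefore given as GRCm38.

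Genes with FPKM of at least 1 in at least 4 libraries were tested (11376, with 18863 removed) by edgeR's quasi-likelihood test (edgeR 4.0.16, R 4.3.3) of the deposited counts in a single model of all 12 libraries, with TMM factors, no covariate and Benjamini-Hochberg adjustment at 0.05. The SE is the absolute log2 fold change over the square root of F. Fosb was fitted without the filter. CPM are TMM-scaled, with a prior of 2 in log2. The fit was tested on simulated data.

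The 10 genes and the lists were chosen with earlier results of these data known. Named from each list were the passing gene with the largest change in each direction, or the most abundant where none passed. Genes nearest in rank pattern were also named, 5 by each of 2 measures. Jdp2, Myc, Btg1, Ppp1r15a, Nab2, Dusp6, Srf, Mrtfa, Mapk14, Map2k1, Ier5l and Cd44, and Klf2 in mdx and Gadd45g in DMD-Null, were added after their values were seen. Alternatives were median-of-ratios factors, library totals, no filter, a filter on mean FPKM (at least 5), GC offsets from a loess curve (span 0.5, with a GC value for 99.93% of tested genes), DESeq2 1.42.0, limma 3.58.1 on log2(FPKM + 1) or log2(FPKM + 0.1), the 8 libraries compared, libraries left out and a replicate block. In DMD-Null, mdx and WT, replicates correlated at 0.945 to 0.982, 0.981 to 0.988 and 0.866 to 0.98, and none was a copy of another (chi-square per degree of freedom at least 45.2).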

Additional observations from a re-analysis of the deposited data

Results flagged for a closer look

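In 30 groups of 4 libraries, 10 genes in 3 genotypes, a library was looked for whose gap to its nearest neighbour took up more of the group's range than Dixon's 95% critical value, which chance gives in about 1 of 20 groups. It was found for 2 genes, both in WT and both with WT 1 as the highest library. For Fosb the gap was 0.899 of the range, with 8.78 CPM in WT 1 and 0.643 to 1.46 in the other WT libraries. For Nr4a1 it was 0.858, with 271 CPM in WT 1 and 146 to 164 in the other WT libraries. Ier2 was also highest in WT 1, at 39.8 CPM, but WT 3 with 20.7 kept its gap under the limit. WT 1 is one of the 2 libraries with a low TMM factor (0.694) and relatively more reads of GC-rich genes. The check was run on TMM-scaled CPM alone. In the deposited FPKM, which take no TMM factor, WT 1 was also the highest WT library for both genes. Fosb had 0.842 there and 0.0834 to 0.191 in the other WT libraries. For Nr4a1 WT 1 stood less far apart on that scale, at 46.6 against 28.0 to 39.2. The part of library composition in these values was not tested.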

How the results depend on the processing

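In DMD-Null against WT, 4 members passed, among them Nr4a3, which was tested through mutant libraries alone. The count was 0 with the replicate block, no filter or the filter on a mean FPKM of at least 5, and 1 with GC-corrected offsets, the 8 libraries compared, without WT 1 and WT 3, also without DMD-Null 4, or with the replicate block and GC offsets. It was 0 to 4 with 1 library left out. The filter on a mean FPKM of at least 5 left Atf3, Nr4a3, Fos and Fosb untested in both comparisons with WT. None of these could therefore pass in that fit. In mdx against WT, 2 passed. The count was 1 with median-of-ratios factors, no filter or the filter on a mean FPKM of at least 5, 4 with library totals or either limma fit, and 0 with the 8 libraries, without WT 1 and WT 3, also without DMD-Null 4, or with the replicate block. It was 0 to 3 with 1 library left out. No member passed between DMD-Null and mdx under any alternative. Over all genes, DMD-Null against WT (3241) gave 1483 with a mean FPKM of at least 5, 5496 and 5402 with limma, 1398 with the 8 libraries, 1869 with the replicate block and 1707 to 6404 with 1 library left out. The mdx comparison (4001) gave 1701, 2268 with the 8 libraries, 2649 without WT 1 and WT 3, 2377 with the replicate block and 2300 to 6874. DMD-Null against mdx (2) gave 1 with a mean FPKM of at least 5 or without WT 1, WT 3 and DMD-Null 4, 6 with DESeq2, 4 with the 8 libraries, 0 with the replicate block, with or without GC offsets, and 1 to 2 with 1 library left out. With library totals the calls were 3360 higher and 574 lower in DMD-Null and 3350 and 707 in mdx, and with limma on log2(FPKM + 1) 4923 and 573, and 5042 and 682. The fall in the count with a mean FPKM of at least 5 goes with fewer genes tested, and with the 8 libraries with fewer libraries in the fit. The cause of the other moves was not tested.

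The estimates that changed sign were uncalled, except Ier5l without WT 1 and WT 3, with or without DMD-Null 4. In DMD-Null against WT, Nr4a1 was 0.26 with library totals, 0.077 with GC offsets, with and without the replicate block, 0.29 and 0.30 with limma (pseudocounts 1 and 0.1) and 0.019 without WT 1 and WT 3. Fosb was 0.076 with limma (0.1), 0.54 without WT 1 and WT 3 and 0.58 also without DMD-Null 4. Fos was -0.42 and -0.35 in those last fits, and Ier5 -0.32 and -0.27. Ier5l was 0.40 with library totals, 0.56 with GC offsets (0.55 with the block), 0.37 and 0.53 with limma, 1.06 without WT 1 and WT 3 and 0.98 also without DMD-Null 4. In mdx against WT, Nr4a1 was 0.021 with a mean FPKM of at least 5, 0.31 with library totals, 0.17 with GC offsets, with and without the block, 0.32 with both limma fits, 0.073 without WT 1 and WT 3 and 0.094 also without DMD-Null 4. Jun was -0.0032 with median-of-ratios factors and DESeq2 and -0.01 without WT 1 and WT 3. Fosb was 0.032 and 0.30 with limma, 0.87 without WT 1 and WT 3, with or without DMD-Null 4, and 0.23 with the block and GC offsets. Ier5 was -0.15 without WT 1 and WT 3 and -0.13 also without DMD-Null 4. Ier5l was 0.33 with library totals, 0.55 with GC offsets, with and without the block, 0.35 and 0.52 with limma, 1.0 without WT 1 and WT 3 and 1.02 also without DMD-Null 4. In DMD-Null against mdx, Atf3 was -0.012 with the 8 libraries and -0.013 without WT 1, WT 3 and DMD-Null 4. Dusp1 was 0.0021 with library totals and 0.065 and Fn1 -0.15 without those 3 libraries, and Mef2c was -0.02 and -0.022 with limma and -0.0074 with the 8 libraries. With 1 library left out, estimates that turned ran, in DMD-Null against WT, from -0.2 to 0.51 (Fos), -1.23 to 0.54 (Fosb), -0.066 to 0.22 (Junb), -0.31 to 0.0092 (Nr4a1), -0.087 to 0.25 (Ier5) and -0.43 to 0.33 (Ier5l). In mdx against WT they ran from -0.9 to 0.88 (Fosb), -0.052 to 0.074 (Jun), -0.37 to 0.063 (Nr4a1) and -0.49 to 0.27 (Ier5l), and in DMD-Null against mdx from -0.52 to 0.0072 (Fosb), -0.14 to 0.17 (Atf3), -0.17 to 0.16 (Nr4a1), -0.064 to 0.078 (Dusp1), -0.15 to 0.31 (Fn1) and -0.17 to 0.13 (Mef2c). Of the other estimates of members, apart from fits without 1 library, 293 kept direction and side of the threshold, 41 lost a call and 15 gained one. The main fit called 4 members in DMD-Null and 2 in mdx against WT, so most of the 293 had no call to lose.

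Same-numbered libraries did not deviate together (r of deviations -0.587 to 0.217), so the replicate numbers were not taken as pairs. With the replicate block Fosb was -0.38 in DMD-Null and -0.066 in mdx, uncalled.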
